A study of Mus musculus with 6 samples.

Results

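N-linked glycosylation attaches a preassembled sugar tree to asparagine residues of proteins in the endoplasmic reticulum (ER) and then remodels it in the Golgi. A lipid-linked oligosaccharide is built on dolichol by the ALG enzymes, transferred to the protein by the oligosaccharyltransferase, trimmed by glucosidases and mannosidases, branched by N-acetylglucosaminyltransferases, and capped with galactose, sialic acid and fucose. The beta-1,4-galactosyltransferases that add galactose need manganese (Mn) as a cofactor, and people with loss of SLC39A8, an importer of Mn, can have serum glycoproteins that lack galactose. In neurons the pathway supplies the glycans of adhesion molecules, receptors and ion channels.

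The transcripts of 55 genes of this pathway were measured by RNA-Seq in the cerebellum of mice in which *Slc39a8* was deleted in neurons. The genes were taken from a list of symbols by their known function, without a threshold on measured values but with earlier results of these data known, and cover N-glycan assembly, transfer, trimming and capping, the whole beta-1,4-galactosyltransferase family, and the supply of mannose and nucleotide sugars. All 55 were among the 53715 genes of the table, and all 55 were among the 16330 genes with enough reads to be tested. The groups were 3 control cerebella, labelled WT, and 3 *Slc39a8*-NSKO cerebella, labelled slc39a8-KO, all from male mice that were 4 weeks old, with the strain labelled C57BL/6 and given as C57BL/6J in the methods. *Slc39a8*-NSKO mice carry floxed *Slc39a8* alleles and the *Synapsin I-Cre* transgene, which drives recombination in neurons and whose expression can vary between brain regions. The study used *Slc39a8* fl/fl mice as controls for its qPCR and elsewhere speaks of wild-type mice, and the counts do not settle whether the samples labelled WT carried the floxed alleles. Whole cerebellum was used, so that glia, vessels and choroid plexus, in which *Slc39a8* was not targeted, contribute RNA to every sample, and fewer cells of a type and less RNA per cell cannot be told apart.

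Gene counts ranged from 14431260 to 20844267 per mouse. The 55 genes together held between 0.278% and 0.285% of the counts in every mouse, and their single counts ranged from 61 for *Alg8* to 6141 for *Man2a2*. The targeted gene *Slc39a8* (chr3:135825279-135888572, plus strand of mm10) had 99, 46 and 44 counts in the control mice and 38, 40 and 41 in the *Slc39a8*-NSKO mice. The *Slc39a8*-NSKO mean was 56.8% of the control mean, and the mice did not overlap, but the difference did not pass edgeR's quasi-likelihood test after Benjamini-Hochberg adjustment over all genes (adjusted *P* = 0.534). Every marker of Purkinje cells, granule cells, inhibitory interneurons, astrocytes, oligodendrocytes and microglia that was checked had at least 10 counts in every mouse, as the label cerebellum requires. The summed level of 8 markers of Bergmann glia and astrocytes was 2717 to 3101 CPM (counts scaled to a library of 1000000) in control and 3184 to 3280 in *Slc39a8*-NSKO mice. The sum of 6 microglial markers was 102 to 113 CPM in control and 119 to 122.6 CPM in *Slc39a8*-NSKO mice. The sum of 6 heart muscle markers was 1.16 to 3.48 against 11.7 to 13.8 CPM, and none of these 6 had 10 counts in every mouse. These 3 sums did not overlap between genotypes, and the sums of the other 7 marker lists did. Within those 7, all 6 choroid plexus markers had a log2 fold change above 0, with a median of 0.38 and no overlap for *Folr1*, and all 7 oligodendrocyte markers had one below 0, with a median of −0.07. None of these 13 markers passed the adjusted threshold. Of the 4 heart muscle markers tested, 3 passed with a higher mean in *Slc39a8*-NSKO mice. These were *Myh6*, *Actc1* and *Tnnt2* (edgeR adjusted *P* = 0.000629, 0.0223 and 0.0338). All 8 markers of Bergmann glia and astrocytes and all 6 of microglia had a log2 fold change above 0, with medians of 0.08 and 0.15, and none of them passed. The part of these markers in the results below was not tested.

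No transcript of the N-glycosylation pathway was called different between the genotypes, and for most of them the error left room for small differences only. None of the 55 genes passed the adjusted threshold of 0.05, where 0.098% of all genes tested (16 of 16330) did, 0.0735% with a lower and 0.0245% with a higher mean in *Slc39a8*-NSKO mice. The lowest adjusted *P* among them was 0.867, for the dolichol kinase gene *Dolk*. At an unadjusted *P* below 0.05 there were 2 genes, *Dolk* with a higher and the sialyltransferase gene *St3gal6* with a lower mean in *Slc39a8*-NSKO mice, against 5.39% of all genes tested, of which 2.25% were higher and 3.14% lower. DESeq2, which passed 0.136% of the genes it adjusted, and limma-voom also gave no gene of the list past the adjusted threshold, and DESeq2 gave none at an unadjusted *P* below 0.05. The count of 2 went to 1 when the *Slc39a8*-NSKO replicate 1 was left out. Log2 fold changes (*Slc39a8*-NSKO over control) ran from −0.19 for *Man1a2* to 0.21 for *Dolk*, with a median of 0.01 beside 0.001 over all genes tested. They were above 0 for 34 of the 55 genes, a direction taken by 50.5% of all genes tested.

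The replicate error limits how large a difference these 3 against 3 mice could hide. The 95% confidence interval of the fold change lay within a 1.2-fold change in either direction for 38 of the 55 genes and within 1.5-fold for 54. The exception at 1.5-fold was *Man1a2*, with an interval of the log2 fold change from −0.59 to 0.20. The median standard error of the log2 fold change was 0.076 for these genes and 0.096 over all genes tested. Over all 6 mice the standard deviation (SD) was below 10% of the mean for 47 of the 55 genes, from 2.35% for the oligosaccharyltransferase subunit gene *Rpn2* to 25.2% for *Man1a2*. These intervals describe the spread between the samples, which the methods give as separate mice and a figure legend as technical triplicates.

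**Figure D1:**
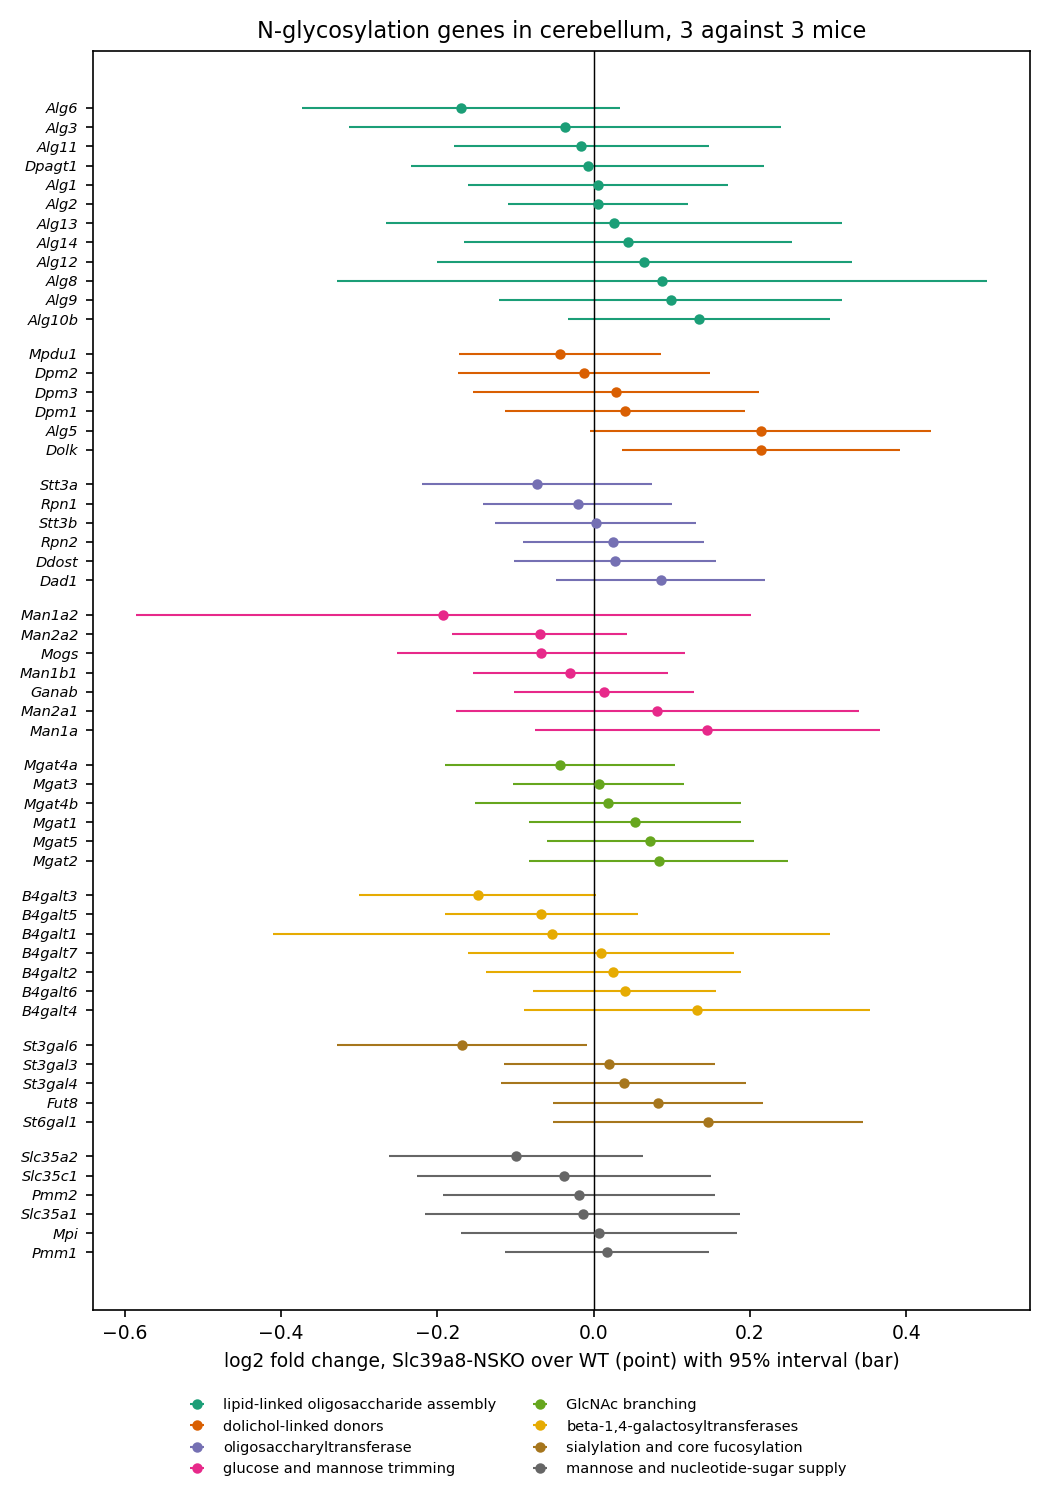
Log2 fold change in *Slc39a8*-NSKO over control cerebellum (x axis; point) with its 95% confidence interval (bar) for each of the 55 genes (y axis), grouped and coloured by step of the pathway, 3 against 3 mice. All points lie between −0.19 and 0.21, the intervals of *Dolk* and *St3gal6* do not reach 0, and the widest belong to *Man1a2* and *Alg8*.

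The steps of the pathway differed far more in level than the genotypes did. Levels were compared between genes as CPM per kilobase of merged exons, averaged over the 6 mice. The highest was 53.8 for *Mgat3*, the enzyme that adds the bisecting N-acetylglucosamine abundant on brain glycans, and the lowest was 1.31 for *B4galt1*. These ranks depend in part on the length used. With the longest transcript in place of merged exons, *Pmm1* at 84.5 lay above *Mgat3* at 53.8, and *B4galt1* stayed lowest at 1.39. The highest gene also changed within some steps. By that length *Mpdu1* (38.1) lay above *Dpm3* (26.3), *Rpn2* (33.7) above *Ddost* (30.9), and *Fut8* (23.8) above *St3gal3* (21.4). Of the 55 genes, 40 lay above the median of all genes tested, which was 4.47 CPM per kilobase. By step, the median level was 5.06 CPM per kilobase for the assembly of the lipid-linked oligosaccharide (12 genes), 12.8 for the dolichol-linked donors (6 genes), 18.2 for the oligosaccharyltransferase (6 genes), 9.42 for trimming (7 genes), 10.7 for branching (6 genes), 7.05 for the beta-1,4-galactosyltransferases (7 genes), 10.7 for sialylation and core fucosylation (5 genes), and 6.15 for mannose and nucleotide-sugar supply (6 genes). The ranges of the steps overlapped. The medians use merged exons, and the order of the steps also depends in part on the length used.

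**Figure D2:**
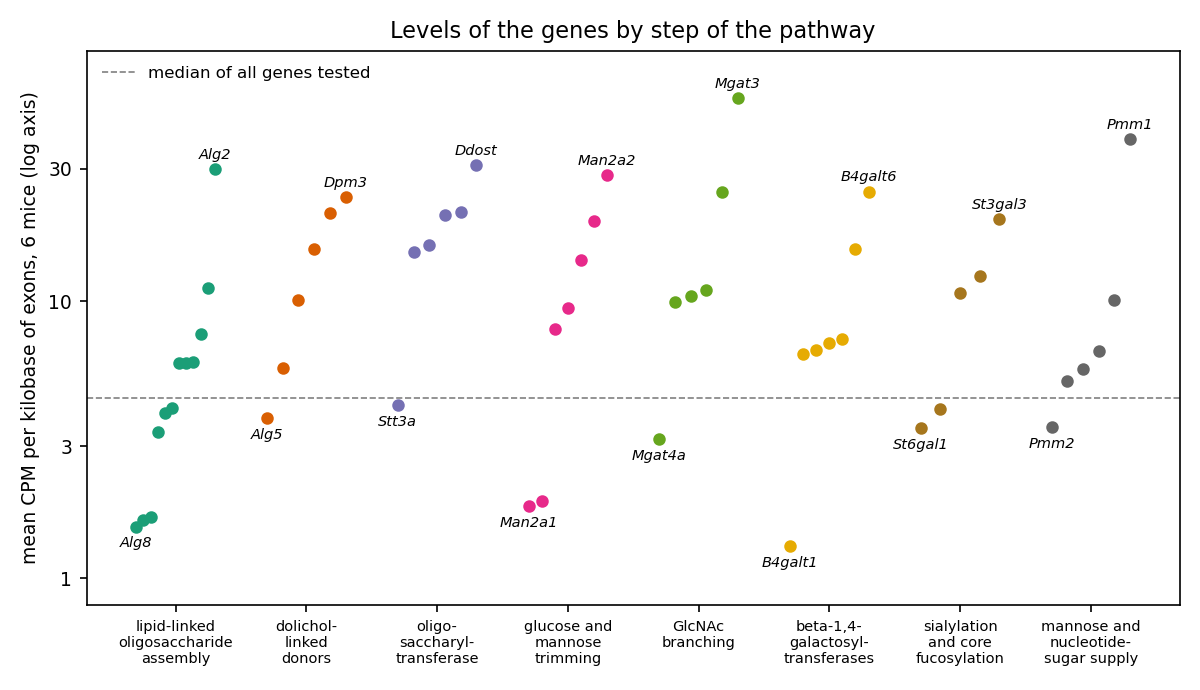
Mean level over 6 mice in CPM per kilobase of merged exons (y axis, log scale) of each of the 55 genes, grouped by step of the pathway (x axis), with the highest and lowest gene of each step named. The dashed line is the median of all genes tested, 4.47 CPM per kilobase, and only *Stt3a* of the 6 oligosaccharyltransferase genes lies below it.

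Assembly of the lipid-linked oligosaccharide starts with DPAGT1, which links N-acetylglucosamine phosphate to dolichol phosphate, and continues with mannosyltransferases and, at the end, the glucosyltransferases ALG6, ALG8 and ALG10B. The 12 genes had a median log2 fold change of 0.02, with 8 above 0. *Alg2*, which adds mannoses on the cytosolic face of the ER, had the highest level of the step, with 29.9 CPM per kilobase. It was at 107, 103 and 99.1 CPM in control mice and at 103 CPM in each *Slc39a8*-NSKO mouse (log2 fold change 0.01, interval −0.11 to 0.12). The level of *Alg8* was the lowest of the step, 1.54 CPM per kilobase. *Alg8* was at 3.86, 4.24 and 4.37 CPM in control mice and at 3.75, 3.85 and 5.63 CPM in *Slc39a8*-NSKO mice, so that a single *Slc39a8*-NSKO mouse lay above all others. *Alg6*, which adds the first glucose, was at 15.0, 14.1 and 14.8 CPM in control and 12.7, 13.4 and 13.0 CPM in *Slc39a8*-NSKO mice. Each *Slc39a8*-NSKO mouse was below each control mouse for *Alg6*, with a log2 fold change of −0.17 (SE 0.095, adjusted *P* = 0.974).

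The promoter of *Alg12*, an ER mannosyltransferase gene, is shown because it was the only one of the set to hold the ER stress response element, a motif through which the unfolded protein response acts on ER genes. The motif is CCAAT, 9 bases of any kind and CCACG, searched on both strands of 250 bases before to 50 after each start in RefSeq's promoters of GRCm38.p6, where 47 of the 55 genes had 58 promoters. Of these 58, 1.72% held it, of the 14887 promoters of genes tested 0.134%, and of all 32851 promoters 0.119%. The share of the set rests on *Alg12* alone, and its difference from the other shares was not tested. The 250 bases before the start lie at chr15:88819319-88819568 on the minus strand and are written 5′ to 3′ with the matched letters in capitals.
Alg12: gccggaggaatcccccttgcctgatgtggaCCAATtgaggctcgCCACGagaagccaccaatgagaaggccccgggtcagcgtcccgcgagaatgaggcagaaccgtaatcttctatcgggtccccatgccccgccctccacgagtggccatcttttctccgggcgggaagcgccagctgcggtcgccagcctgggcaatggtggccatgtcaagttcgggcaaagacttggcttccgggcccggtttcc
The motif begins 220 bases before the start. *Alg12* averaged 7.78 CPM over the control mice, with an SD of 0.321, and 8.12 CPM over the *Slc39a8*-NSKO mice, with an SD of 0.418. The log2 fold change was 0.06 (interval −0.20 to 0.33).

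Donors for the luminal steps are made on dolichol phosphate. DOLK makes dolichol phosphate from dolichol, ALG5 makes dolichol-phosphate glucose, the DPM1, DPM2 and DPM3 complex makes dolichol-phosphate mannose, and MPDU1 is needed for use of both. The step held both genes of the set whose *Slc39a8*-NSKO mice all lay above the control mice. The same was true of 5.07% of all genes tested, and neither gene passed the adjusted threshold. *Dolk* was at 20.4, 20.5 and 18.0 CPM in control mice and at 22.9, 22.9 and 22.5 CPM in *Slc39a8*-NSKO mice. The *Slc39a8*-NSKO mean was 116% of the control mean (log2 fold change 0.21, SE 0.083, interval 0.04 to 0.39, unadjusted *P* = 0.0218, adjusted *P* = 0.867). *Alg5* was at 13.5, 13.1 and 12.7 CPM in control and 16.4, 13.8 and 15.4 CPM in *Slc39a8*-NSKO mice, where the spread between mice was wider. Its log2 fold change was 0.21 (SE 0.10, unadjusted *P* = 0.0538, adjusted *P* = 0.919). *Dpm3*, the membrane anchor of the mannose donor synthase and the highest of the step with 23.7 CPM per kilobase, was at 20.6, 20.7 and 23.4 CPM in control and 23.1, 21.8 and 21.0 CPM in *Slc39a8*-NSKO mice. The other 3 genes of the step, *Dpm1*, *Dpm2* and *Mpdu1*, had log2 fold changes between −0.04 and 0.04.

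The oligosaccharyltransferase transfers the finished oligosaccharide to the protein, with STT3A acting during and STT3B also after translocation. Its 6 genes varied little between mice and had log2 fold changes from −0.07 for *Stt3a* to 0.09 for *Dad1*, with intervals between −0.22 and 0.22. *Ddost*, which encodes a structural subunit, was the highest with 30.9 CPM per kilobase, and was at 66.5, 66.2 and 61.6 CPM in control and 64.1, 68.2 and 65.8 CPM in *Slc39a8*-NSKO mice. The catalytic subunits differed in level. *Stt3b* was at 16.0 and *Stt3a* at 4.22 CPM per kilobase. Per length, the log2 ratio of *Stt3a* to *Stt3b* averaged −1.89 ± 0.12 (SD, n = 3) over control and −1.96 ± 0.07 (SD, n = 3) in *Slc39a8*-NSKO mice, and the difference of −0.07 did not pass an exact two-sided permutation test (*P* = 0.5). This was 1 of 7 ratios of isoenzymes that were computed within each mouse. For 3 against 3 mice this test cannot give a *P* below 0.1, and the adjusted *P* over the 7 ratios was at least 0.817. The mice overlapped in all 7 ratios.

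Trimming by the glucosidases MOGS and GANAB and by the ER and Golgi mannosidases prepares the glycan for branching. The median log2 fold change of the 7 genes was −0.03. *Man1a2*, a Golgi mannosidase gene, had the widest spread of the set, and the spread lay within the genotypes. It was at 83.1, 70.8 and 47.5 CPM in control mice and at 52.4, 47.4 and 77.3 CPM in *Slc39a8*-NSKO mice, so that both groups held a mouse near 47.5 CPM and one at or above 77.3 CPM. Its log2 fold change of −0.19 rested on single mice. It was −0.00019 without control replicate 1 and −0.38 without control replicate 3. Without *Slc39a8*-NSKO replicates 1, 2 and 3 it was −0.11, −0.056 and −0.43. Over all 14 alternative fits, the one without control replicate 2 included, *Man1a2* stayed between −0.43 and −0.00019. It did not pass the test in any of them. Its paralog *Man1a* was at 19.0, 16.2 and 17.2 CPM in control and 21.1, 17.0 and 20.0 CPM in *Slc39a8*-NSKO mice. Per length, the log2 ratio of *Man1a* to *Man1a2* averaged −2.18 ± 0.38 over control and −1.86 ± 0.33 in *Slc39a8*-NSKO mice (SD, n = 3, exact permutation *P* = 0.3). Of the mannosidase II genes, which remove mannoses after the first branch is added, *Man2a2* was at 28.5 and *Man2a1* at 1.82 CPM per kilobase. *Man2a2* was at 296, 311 and 296 CPM in control and 285, 276 and 299 CPM in *Slc39a8*-NSKO mice. *Man2a1* was at 13.8, 11.4 and 13.2 CPM in control and 15.6, 12.4 and 12.6 CPM in *Slc39a8*-NSKO mice. Per length, their log2 ratio (*Man2a1* to *Man2a2*) averaged −4.05 ± 0.18 over control and −3.90 ± 0.20 in *Slc39a8*-NSKO mice (SD, n = 3, exact permutation *P* = 0.5).

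Branching enzymes place N-acetylglucosamine on the trimmed core and set how many antennae can be galactosylated. All 6 genes overlapped between genotypes, and their log2 fold changes ran from −0.04 for *Mgat4a* to 0.08 for *Mgat2*. *Mgat3* was at 254, 242 and 256 CPM in control mice and at 261, 246 and 248 CPM in *Slc39a8*-NSKO mice, among the tightest values of the set (log2 fold change 0.01, interval −0.10 to 0.12). *Mgat4b*, 1 of the paralogs that start the same branch, was at 24.7 CPM per kilobase, and *Mgat4a* was the lowest of the step at 3.19 CPM per kilobase. *Mgat4b* was at 62.0, 74.4 and 64.1 CPM in control and 61.7, 69.0 and 72.0 CPM in *Slc39a8*-NSKO mice. *Mgat4a* was at 39.1, 44.5 and 41.7 CPM in control and 41.5, 40.4 and 39.6 CPM in *Slc39a8*-NSKO mice. Per length, the log2 ratio of *Mgat4a* to *Mgat4b* averaged −2.92 ± 0.06 over control and −2.98 ± 0.15 in *Slc39a8*-NSKO mice (SD, n = 3, exact permutation *P* = 0.6).

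The beta-1,4-galactosyltransferases use Mn as a cofactor, as do several other enzymes of the set, among them the branching enzyme MGAT1 and the STT3 subunits. B4GALT1 to B4GALT4 extend N-acetylglucosamine on glycoproteins, B4GALT5 and B4GALT6 make lactosylceramide, from which the gangliosides of neurons are built, and B4GALT7 acts on the linker of proteoglycans. None of the 7 genes passed the test, and the median log2 fold change of the family was 0.01, with 4 genes above 0. This median was 0.02 without control replicate 1 and turned negative without *Slc39a8*-NSKO replicate 1 (−0.0051) or replicate 3 (−0.0060), so that it had no settled direction. *B4galt6* was the highest per length, at 23.8 to 26.2 CPM per kilobase over the 6 mice, and *B4galt5* followed at 14.5 to 16.0. *B4galt2*, *B4galt7*, *B4galt3* and *B4galt4* came next, between 5.44 and 7.96 CPM per kilobase, and neighbours in that order overlapped. *B4galt1* was the lowest, at 1.04 to 1.46 CPM per kilobase. Only the gaps between *B4galt6* and *B4galt5*, between *B4galt5* and *B4galt2*, and between *B4galt4* and *B4galt1* were larger than the spread over mice. With the length of the longest transcript in place of merged exons, *B4galt6*, *B4galt5* and *B4galt1* kept their places, and *B4galt3* followed *B4galt5* at 11.1 CPM per kilobase. Of the family's summed level per length, *B4galt6* and *B4galt5* made up 35.9% and 22.4%, and *B4galt1* made up 1.90%.

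*B4galt6* was at 140, 139 and 148 CPM in control mice and at 152, 143 and 143 CPM in *Slc39a8*-NSKO mice, which overlapped (log2 fold change 0.04, interval −0.08 to 0.16). *B4galt5* was at 68.9, 68.3 and 67.0 CPM in control and 62.7, 65.3 and 67.0 CPM in *Slc39a8*-NSKO mice (log2 fold change −0.07, interval −0.19 to 0.06). Per length, the log2 ratio of *B4galt5* to *B4galt6* averaged −0.63 ± 0.07 over control and −0.74 ± 0.10 in *Slc39a8*-NSKO mice (SD, n = 3, exact permutation *P* = 0.3).

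Of the genes for glycoprotein galactosylation, *B4galt3* was the only one of the family whose genotypes did not overlap. It was at 38.5, 40.0 and 36.1 CPM in control and 35.1, 32.6 and 35.6 CPM in *Slc39a8*-NSKO mice, or 38.2 ± 1.95 against 34.5 ± 1.63 CPM (SD, n = 3). The *Slc39a8*-NSKO mean was 90.2% of the control mean (log2 fold change −0.15, SE 0.070, interval −0.30 to 0.00, unadjusted *P* = 0.0543, adjusted *P* = 0.921). Its exons share 791 bases with *Ppox* on the opposite strand, and whether the counting used strand is not given in the sources used here. *B4galt1*, with 79 to 128 counts per mouse, was at 6.18, 5.70 and 5.08 CPM in control and 5.96, 6.01 and 4.41 CPM in *Slc39a8*-NSKO mice, and its interval from −0.41 to 0.30 was the widest of the family. *B4galt2* was at 37.1, 36.2 and 35.9 CPM in control and 33.4, 37.7 and 40.1 CPM in *Slc39a8*-NSKO mice, which lay on both sides of the control mice. Its exons share 1417 bases with *Ccdc24* on the same strand. Per length, the log2 ratio of *B4galt2* to *B4galt1* averaged 2.44 ± 0.12 over control and 2.53 ± 0.36 in *Slc39a8*-NSKO mice (SD, n = 3, exact permutation *P* = 0.9). *B4galt4* was at 17.5, 23.0 and 19.1 CPM in control and 20.8, 21.2 and 23.1 CPM in *Slc39a8*-NSKO mice (log2 fold change 0.13, interval −0.09 to 0.35). *B4galt7* was at 20.2, 20.4 and 20.4 CPM in control and 20.9, 19.6 and 20.9 CPM in *Slc39a8*-NSKO mice (log2 fold change 0.01, interval −0.16 to 0.18). The 95% interval lay within a 1.2-fold change for 4 of the 7 genes and within 1.5-fold for all 7.

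**Figure D3:**
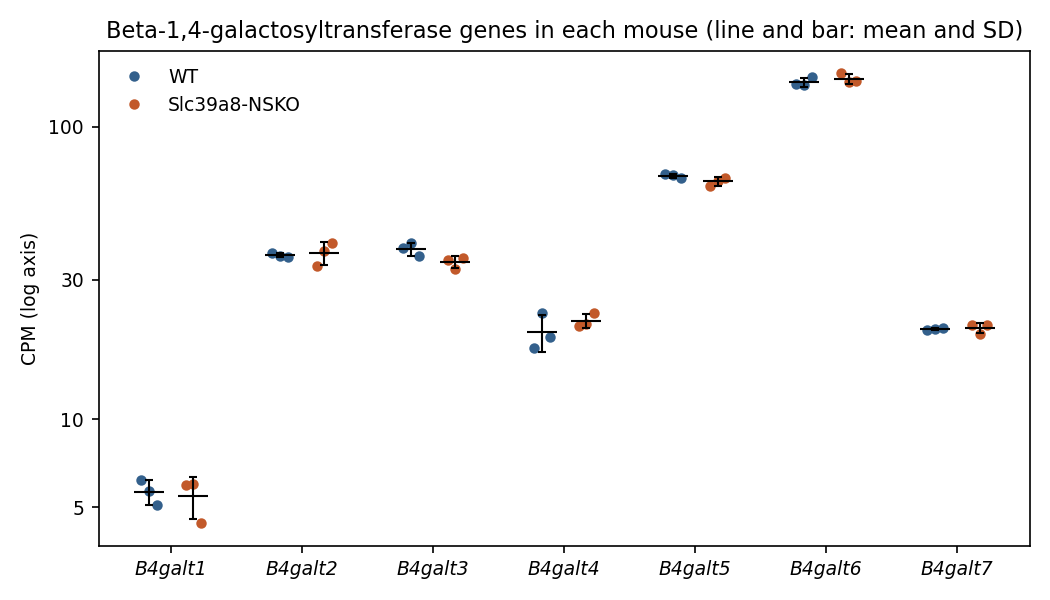
CPM (y axis, log scale) of the 7 beta-1,4-galactosyltransferase genes (x axis) in each control and *Slc39a8*-NSKO mouse (points), with the mean (line) and SD (bar) of 3 mice. *B4galt6* lies between 139 and 152 CPM and *B4galt1* between 4.41 and 6.18 CPM in both genotypes, and only *B4galt3* has all *Slc39a8*-NSKO mice below the control mice.

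The promoter of *B4galt3* is shown because this gene alone of the family had genotypes without overlap, and for the motif it holds. Whether the motif bears on its level was not tested. That of *B4galt5* is shown for a lactosylceramide synthase gene with a promoter rich in GC boxes. Both printed sequences are the 250 bases before the start, 5′ to 3′, in RefSeq's promoters of GRCm38.p6. For *B4galt3* (chr1:171270078-171270327, plus strand) the capitals mark the cAMP response element (CRE), TGACGTCA, which ends at the base before the start. For *B4galt5* (chr2:167349179-167349428, minus strand) they mark 7 matches to the GC box, GGGCGG, a motif bound by SP1, all on the opposite strand and in part overlapping.
B4galt3: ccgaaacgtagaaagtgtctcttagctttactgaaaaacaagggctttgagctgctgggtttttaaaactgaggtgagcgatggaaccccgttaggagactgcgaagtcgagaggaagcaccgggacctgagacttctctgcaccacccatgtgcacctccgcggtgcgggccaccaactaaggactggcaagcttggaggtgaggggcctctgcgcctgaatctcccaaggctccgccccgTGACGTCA
B4galt5: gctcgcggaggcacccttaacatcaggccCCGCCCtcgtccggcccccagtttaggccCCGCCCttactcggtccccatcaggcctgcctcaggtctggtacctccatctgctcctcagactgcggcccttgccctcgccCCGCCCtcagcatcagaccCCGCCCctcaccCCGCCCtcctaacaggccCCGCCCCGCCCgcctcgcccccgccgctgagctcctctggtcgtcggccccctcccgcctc
A CRE was in 3.45% of the set's 58 promoters, those of *Alg13* and *B4galt3*, in 2.9% of the promoters of genes tested and in 1.79% of all promoters. *Alg13*, whose product adds N-acetylglucosamine at the start of assembly, had a log2 fold change of 0.03 (interval −0.27 to 0.32). A GC box was in 70.7% of the set's promoters, 60.1% of those of genes tested and 35.7% of all. A CCAAT box, CCAAT, which lies inside the ER stress response element, was in 41.4%, 37.4% and 37.4%. A TATA box, TATAAA, was in 5.17%, 7.36% and 13.6%, and its 3 genes in the set were *Alg9*, *Alg13* and *Slc35a1*. The median GC content was 61.5% in the set, 60.3% in genes tested and 52.7% in all promoters, so that the set was closer to the genes expressed here than to all promoters. All motifs were searched on both strands.

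Sialyltransferases and the fucosyltransferase FUT8 complete the glycans. *St3gal6*, which adds sialic acid to galactose, was at 27.2, 25.8 and 26.7 CPM in control mice and at 23.3, 24.8 and 22.9 CPM in *Slc39a8*-NSKO mice, with no overlap. Its log2 fold change was −0.17 (SE 0.074, interval −0.33 to −0.01, unadjusted *P* = 0.0404, adjusted *P* = 0.908). Its exons share 1603 bases with *Dcbld2* on the opposite strand. *St3gal3*, the highest of the step at 19.8 CPM per kilobase, was at 53.0, 53.6 and 56.3 CPM in control and 57.7, 52.5 and 54.9 CPM in *Slc39a8*-NSKO mice. *St6gal1*, which makes the other main sialic acid linkage and was the lowest of the step at 3.49 CPM per kilobase, was at 17.4, 15.4 and 15.9 CPM in control and 17.0, 18.9 and 18.2 CPM in *Slc39a8*-NSKO mice (log2 fold change 0.15, interval −0.05 to 0.34). *Fut8*, the core fucosyltransferase gene, and *St3gal4* had log2 fold changes of 0.08 and 0.04.

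The supply genes make activated mannose and carry nucleotide sugars into the Golgi. Their log2 fold changes ran from −0.10 for *Slc35a2* to 0.02 for *Pmm1*. *Slc35a2*, the UDP-galactose transporter that feeds the galactosyltransferases, was at 24.9, 25.2 and 25.4 CPM in control mice and at 24.0, 22.1 and 24.3 CPM in *Slc39a8*-NSKO mice. The mice did not overlap, but the log2 fold change of −0.10 (SE 0.075, adjusted *P* = 0.994) was far from the threshold. Of the phosphomannomutase genes, *Pmm1* was at 38.3 and *Pmm2* at 3.50 CPM per kilobase. *Pmm1* was at 107, 118 and 103 CPM in control and 106, 113 and 112 CPM in *Slc39a8*-NSKO mice. *Pmm2* was at 18.8, 19.6 and 20.1 CPM in control and 19.1, 19.0 and 19.6 CPM in *Slc39a8*-NSKO mice. Per length, the log2 ratio of *Pmm1* to *Pmm2* averaged 3.43 ± 0.11 in control and 3.47 ± 0.05 in *Slc39a8*-NSKO mice (SD, n = 3, exact permutation *P* = 0.7).

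Across the set, the genotypes did not overlap for 6 of the 55 genes, *Alg6*, *B4galt3*, *St3gal6* and *Slc35a2* with *Slc39a8*-NSKO mice below and *Dolk* and *Alg5* with *Slc39a8*-NSKO mice above. This is 10.9% of the set, and 10.3% of all genes tested did not overlap, 5.26% with *Slc39a8*-NSKO mice below and 5.07% with them above. The share of the set was thus near that of all genes.

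**Figure D4:**
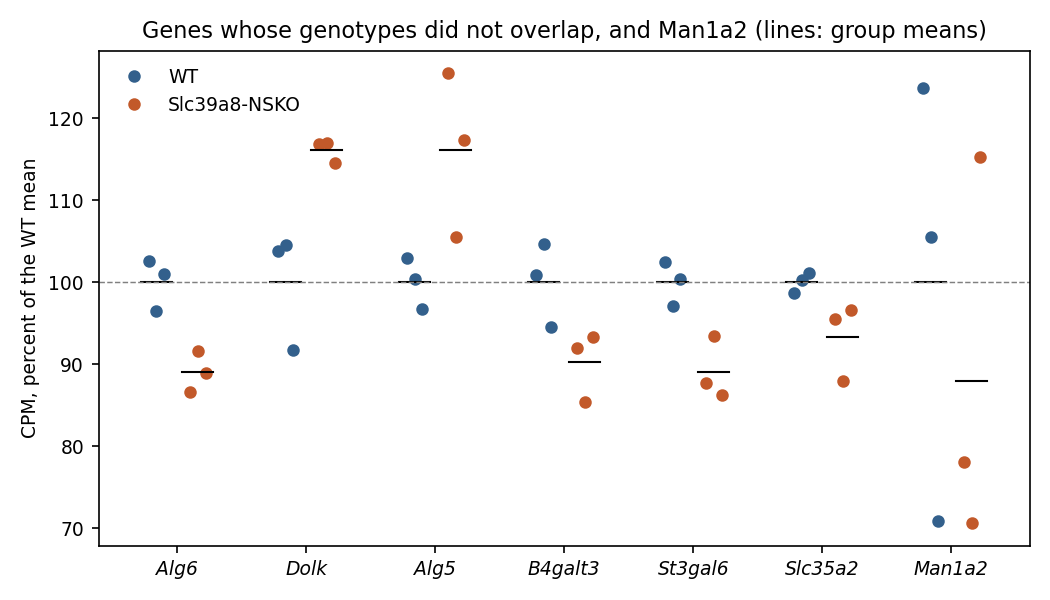
CPM of each mouse as a percent of the control mean (y axis) for the 6 genes whose genotypes did not overlap and for *Man1a2* (x axis). Points are mice and lines are means of 3 mice. *Slc39a8*-NSKO means lie at 116% for *Dolk* and 90.2% for *B4galt3*, and the mice of both genotypes are spread widely for *Man1a2*.

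Genes of neighbouring functions outside the set gave no call either. They cover further steps of N-glycosylation, other galactosyltransferases, some of which act on other glycans or lipids, and the ion balance and tethering factors of the Golgi, and include *Slc39a8* itself. Of these 90 genes, 88 had enough reads to be tested and none passed the adjusted threshold, with a median log2 fold change of 0.004. At an unadjusted *P* below 0.05, *Slc35a3* and the targeted *Slc39a8* were lower and *Pgm3* and *B3galt6* higher in *Slc39a8*-NSKO mice, which is 4.55% of those tested beside the 5.39% of all genes. *Slc35a3*, a UDP-N-acetylglucosamine transporter, was at 33.7, 33.9 and 31.5 CPM in control and 29.6, 30.5 and 29.3 CPM in *Slc39a8*-NSKO mice (log2 fold change −0.15, SE 0.069, adjusted *P* = 0.916). *Pgm3*, which acts in the synthesis of UDP-N-acetylglucosamine, was at 9.60, 9.94 and 9.77 CPM in control and 10.8, 11.8 and 11.8 CPM in *Slc39a8*-NSKO mice (log2 fold change 0.23, SE 0.109, adjusted *P* = 0.916). *B3galt6*, a galactosyltransferase of the proteoglycan linker, was at 13.2, 11.9 and 14.4 CPM in control and 16.4, 14.5 and 15.7 CPM in *Slc39a8*-NSKO mice (log2 fold change 0.24, SE 0.104, adjusted *P* = 0.908). Of the 88 genes tested, the genotypes did not overlap for 10, 6 with *Slc39a8*-NSKO mice below and 4 with them above, or 11.4% beside the 10.3% of all genes tested. The 6 below include *Slc39a8*, whose direction was set by its deletion.

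Delivery of Mn to the Golgi involves TMEM165 and the calcium and manganese pump ATP2C1. *Tmem165* was at 27.4, 27.4 and 26.7 CPM in control mice and at 23.5, 23.8 and 25.8 CPM in *Slc39a8*-NSKO mice, which all lay below the control mice (log2 fold change −0.16, SE 0.074, interval −0.32 to 0.00, unadjusted *P* = 0.0515, adjusted *P* = 0.916). *Atp2c1* was at 117, 106 and 116 CPM in control and 115, 111 and 111 CPM in *Slc39a8*-NSKO mice, and its log2 fold change was −0.01 (interval −0.13 to 0.12). Of the 18 genes tested for Golgi ion homeostasis and tethering, which include both and *Slc39a8*, none passed the adjusted threshold.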

How the data were processed

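Poly(A) RNA of 3 control and 3 *Slc39a8*-NSKO cerebella was sequenced as paired-end reads. Per the labels, STAR, RSEM and mm10 were used (versions not given), and the authors deposited expected counts per gene, with no normalization for depth or length. Rows for 92 spike-in sequences (at most 5 counts per mouse) were left out. Expected counts were rounded and tested in R 4.3.3 with the quasi-likelihood test of edgeR 4.0.16 (TMM, filterByExpr, genotype only) and Benjamini-Hochberg adjustment over 16330 genes. CPM used TMM-scaled library sizes. Exon lengths and names came from GENCODE M21 (GRCm38). Pairs of libraries differed by a chi-square of 3.97 to 9.41 per degree of freedom, above counting noise, which does not tell separate mice from separate preparations of one RNA. Alternatives were DESeq2 1.42.0, limma-voom (limma 3.58.1), other scaling and filters, unrounded counts, a replicate block, longest transcripts, and leaving out each mouse. The analysis was checked on simulated data in which 200 of 16330 genes were changed. At a simulated log2 fold change of 0.5, edgeR recovered 62% of the changed genes, and 8.15% of its calls were false. At 1 it recovered 80.5%, with 9.55% of calls false. Both false shares lay above the nominal 5%. Changes as small as those of the set were not simulated. Values per mouse are given for the beta-1,4-galactosyltransferase genes, genes at an unadjusted *P* below 0.05 or without overlap, the extremes of each step, isoenzyme pairs, and *Slc39a8*, and outside the set for genes at an unadjusted *P* below 0.05, *Tmem165* and *Atp2c1*. Other genes are named as limits of a range, as the rest of a step or for their promoters, after their values were seen. The genes and lists were chosen with earlier results of these data known.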

Additional observations from a re-analysis of the deposited data

How the results depend on the processing

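Of 610 values recomputed under the alternatives, 606 kept their side of the threshold, stayed near the main count or stayed within the spread. A change of sign in a gene's fold change counted only where a fit passed the threshold, so that this number does not describe direction. The replicate-block values of the 7 isoenzyme ratios were counted as unchanged without being compared with the spread. No gene of the set, and none of the 88 others, passed the adjusted threshold in any of 14 alternative fits, in which the lowest adjusted *P* of a gene of the set was 0.470, without the filter on low counts. The count of genes at an unadjusted *P* below 0.05 was 0 with DESeq2, against 2, and 1 to 3 when a mouse was left out. The median log2 fold change of the set ran from 0.0051 to 0.016 when a mouse was left out and was lowest without control replicate 1. The median of the beta-1,4-galactosyltransferase genes ran from −0.0060 to 0.023. The median level per length went from 7.92 to 9.80 CPM per kilobase with longest transcripts. All 55 genes kept the sign of their fold change in the 8 alternatives with all mice, and 26 kept it in all 14. Replicate numbers are shared by the genotypes. In their deviations from the group mean, control replicates 1 and 2 correlated best with the same number (0.14 and 0.12). Control replicate 3 correlated at 0.01 with its own number and best with *Slc39a8*-NSKO replicate 1 (0.04), so that a pairing was not settled. With a replicate block, 3 genes of the set were at an unadjusted *P* below 0.05, none passed (lowest adjusted *P* 0.586), and over all genes 41 passed, against 16. Over all genes, 37 passed with DESeq2, 178 without the filter, 11 with at least 10 counts in every mouse, and 9 to 38 when a mouse was left out. The causes were not tested.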
